A study of Mus musculus with 121 samples.

Results

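The MondoA glucose-sensing genes were followed in Per2::Luc fibroblasts after cyclic feeding and fasting of the cultures. They are 5 genes chosen by name, Txnip, Arrdc4, Mlxip, Mlx and Slc2a1, of 31053 genes listed in the deposited counts. All 5 passed the filter on low counts, which 13292 genes passed and which asked for a level of at least 1 CPM in at least 3 libraries. CPM is the count of a gene per 1000000 counts assigned to genes. The rule itself uses no measured value, although the members were chosen with earlier results of these data known.

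MondoA, the product of Mlxip, is a transcription factor that binds DNA together with its partner Mlx. It responds to glucose 6-phosphate, moving into the nucleus and binding carbohydrate response elements when glucose enters the cell. Its best known targets in many cell types, fibroblasts included, are Txnip and Arrdc4, which encode alpha-arrestins that restrain glucose uptake, in part by promoting the removal of the glucose transporter GLUT1, the product of Slc2a1, from the cell surface.

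The carbohydrate response element is a pair of E-box-like half-sites held at a fixed spacing. The sequences below show what the promoters of the members contain of it and are therefore given before the values. The promoters, 250 bases before to 50 bases after each start, were taken from RefSeq on the build GRCm38, and both strands were searched for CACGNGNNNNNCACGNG (tandem half-sites), for CACGTG (the E-box) and for CACGNG (a half-site, which holds the E-box too and occurs in both parts of the tandem). The capitals mark the matching letters, and each window is read 5′ to 3′ on the strand of its gene.
Txnip, chr3:96557866-96557895, plus strand, tandem half-sites: actgtgCACGAGGGCTGCACGAGcctccag
Arrdc4, chr7:68749414-68749443, minus strand, E-box: aaaggtcctgtgCACGTGcactatggtgtc
Mlx, chr11:101087238-101087267, plus strand, E-box: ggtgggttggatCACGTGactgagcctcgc
The tandem of Txnip, 69 to 85 bases before its start, was shared by 14 of 27025 promoters (0.0518%). The E-box, found in the promoters of Arrdc4 and Mlx, occurred in 7.24% of promoters, and a half-site in 27.7%. None of these letters occurred in the windows of Mlxip and Slc2a1.

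The cells were an immortalized line of mouse ear fibroblasts (passage P25) that carries the PER2::LUC sv knockin reporter, and all groups shared this genotype. For 3 daily cycles the cultures received 12 h of medium rich in glucose and insulin (H) and 12 h of medium poor in both (L) in the order HL, 12 h L and 12 h H in the order LH, or H medium throughout (HH). RNA was taken 12 h after the end of the cycles and then every 4 h, in 6 collections from 0 to 20 h, and was counted by 3′ digital gene expression (3′DGE), which tags the 3′ end of transcripts. Collections were matched between treatments by their order, although by titles the label hours of collections 3 and 4 differ between LH and the other treatments. The methods of the study call its replicates biological unless stated otherwise, while nothing in the labels says that libraries of a group came from separate cultures, so that P-values measure the spread between these libraries, which may be technical. In a bulk sample fewer cells of a type and less RNA per cell cannot be told apart.

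The 62 libraries (21 HL, 22 LH and 19 HH by their titles) held 104912 to 11619095 gene counts with a median of 5825881. Only the library of LH collection 2 replicate 2 held fewer than 2136819 counts. The library numbers that the counts carry were given other sample names in the study's read summary for 35 libraries and were not listed there for 5. Every result was therefore computed by titles and again by library numbers, which left 57 libraries, 19 per treatment, and 13198 tested genes. The HH libraries and the HL libraries of collection 1 had the same names in both. All 8 fibroblast markers averaged at least 10 CPM, with a summed level of 9017 to 36334 CPM. The summed level of the other marker lists had a median of 1.78 CPM for keratinocytes, where Krt5 and Krt1 were at 0 in every library and Cdh1 averaged 1.48 CPM, and 0.194 CPM for muscle, where Myod1 was at 0. It was 3.60 CPM for leukocytes, led by Cd68 at 3.27 CPM, and 6.60 CPM for adipocytes, led by Fabp4 at 7.10 CPM. Of the endothelial markers Kdr, a receptor known from endothelium, averaged 172 CPM beside 0.276 CPM for Pecam1 and 0.0672 CPM for Cdh5.

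Across genes with a mean of at least 10 CPM, 5 libraries had a median Pearson r with the other libraries below 0.9, from 0.794 to 0.895, against 0.914 to 0.976 in the rest. They were LH collection 2 replicates 1 and 2, HL collection 2 replicate 3, HH collection 6 replicate 3 and HL collection 5 replicate 2. In LH collection 2 replicate 2 the summed level of the leukocyte markers was 124 CPM, the highest of all libraries, which rested on 13 counts, 8 of Ptprc and 5 of Cd68. Without these 5 libraries no member passed an adjusted P of 0.05 in any edgeR test in either assignment. By titles the change from HL to LH on the log2 scale was then -0.53 for Arrdc4 (SE 0.37), -0.07 for Mlxip (SE 0.11), -0.0036 for Mlx (SE 0.0864) and 0.17 for Slc2a1 (SE 0.14).

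Txnip, which also binds thioredoxin, was present in every library, between 8.77 and 140 CPM. By titles it averaged 41.3 ± 15.8 CPM in HL (SD, n = 21), 57.3 ± 25.0 CPM in LH (n = 22) and 60.8 ± 30.4 CPM in HH (n = 19). The 3 treatments overlapped widely, since HL spanned 13.0 to 66.7 CPM with a median of 43.4, LH 8.77 to 140 with a median of 52.9, and HH 16.3 to 136 with a median of 55.4.

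**Figure D1:**
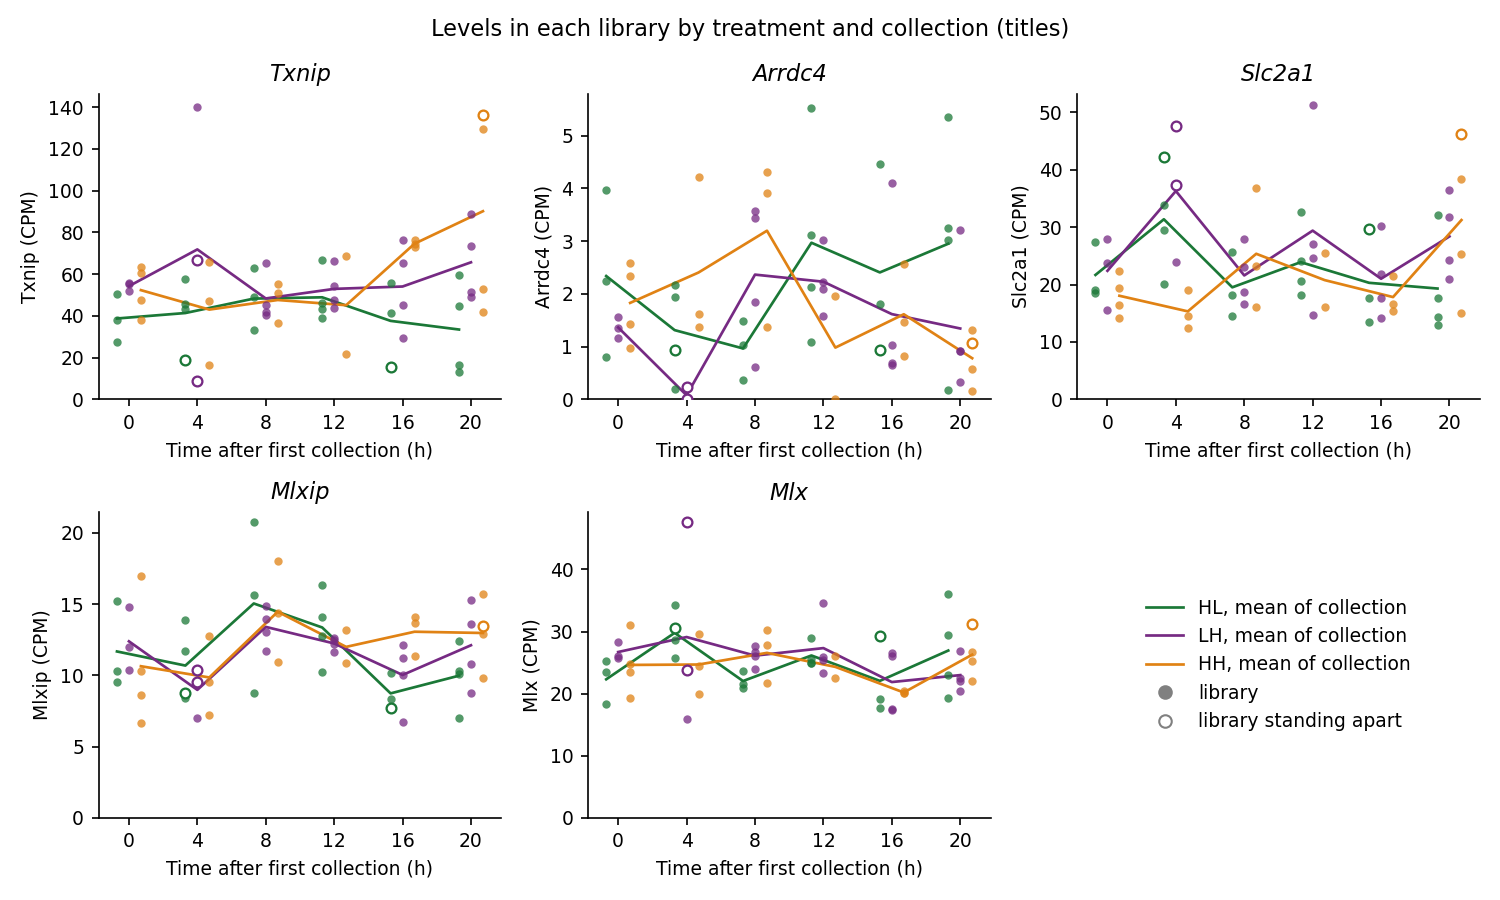
Level of each gene in CPM (vertical axes, starting at 0) against hours after the first collection in the 62 libraries by titles; points are libraries, shifted slightly by treatment, open points the 5 libraries that stand apart, and lines join the means of the collections in HL (green), LH (purple) and HH (orange). Points of the 3 treatments intermix in each panel, and the highest mean of Txnip is that of HH at 20 h, 90.1 CPM.

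The libraries of HL held Txnip in collection 1 at 27.5, 50.5 and 38.2 CPM, in collection 2 at 57.8, 45.7, 18.7 and 43.1 CPM, and in collection 3 at 62.7, 33.2 and 48.8 CPM. In collection 4 they held 66.7, 43.4, 46.3 and 39.1 CPM, in collection 5 41.3, 15.6 and 55.8 CPM, and in collection 6 59.4, 44.8, 16.6 and 13.0 CPM. Low libraries, under 20 CPM, thus stood in collections 2, 5 and 6 beside libraries above 40 CPM of the same collection.

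In LH the values were 55.2, 51.8 and 55.7 CPM in collection 1, then 8.77, 66.7 and 140 CPM in collection 2, and 45.4, 40.5, 41.9 and 65.5 CPM in collection 3. They were 47.6, 43.7, 54.1 and 66.3 CPM in collection 4, 76.2, 29.6, 65.1 and 45.3 CPM in collection 5, and 51.3, 88.7, 49.0 and 73.6 CPM in collection 6. Collection 2 held both the lowest and the highest library of all 62, and its middle value rested on 7 counts in the smallest library.

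In HH the first 3 collections held 60.3, 47.5, 63.6 and 37.9 CPM, then 16.3, 47.1 and 65.6 CPM, then 55.4, 51.0 and 36.3 CPM. Collection 4 held 68.5 and 21.7 CPM, collection 5 held 74.3, 73.1 and 76.3 CPM, and collection 6 held 52.7, 129, 136 and 41.9 CPM. The high mean of collection 6 therefore came from 2 of its 4 libraries, and 1 of them, at 136 CPM, is among the libraries that stand apart.

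In the order of the 18 group means Txnip ran from 33.4 ± 22.4 CPM in HL collection 6 (SD, n = 4) to 90.1 ± 49.7 CPM in HH collection 6 (n = 4). None of the 17 pairs of neighbours in that order differed by more than the larger of their SDs. Neighbours in a sorted order are close by construction, so that this does not tell whether groups far apart in it differ.

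The first comparison asked whether the order of feeding and fasting left a difference in the mean level of these genes. A gene was called in a pair of treatments when the edgeR quasi-likelihood test gave P under 0.01 over the 3 treatments and under 0.05 in the pair, the thresholds of the study's methods. By titles this called 1.16% of the genes tested in LH against HL, 1.2% in HH against HL and 0.91% in LH against HH, and none of the 5 members in any pair. By library numbers it called 1.34%, 0.568% and 1.63% of genes, and again none of the members. Of the 15 differences 2 passed an unadjusted P of 0.05 by titles, both of Txnip, where 5.69% of all genes passed in LH against HL, 7.42% in HH against HL and 5.23% in LH against HH. By library numbers 1 passed, Txnip in LH against HH, where the shares of all genes were 7.63%, 3.62% and 10.2%.

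Txnip was 1.32-fold higher in LH than in HL by titles (log2 fold change 0.40, SE 0.18, 95% interval 0.03 to 0.77, n = 22 and 21), with P = 0.0339 in the pair and 0.0324 over the 3 treatments, and an adjusted P over all genes of 0.835 in edgeR. The mean of LH lay above that of HL in 6 of 6 collections. In HH it was 1.40-fold higher than in HL (log2 fold change 0.48, SE 0.19, interval 0.10 to 0.87, n = 19 and 21), with P = 0.0145 and an adjusted P of 0.598 in edgeR, and higher in 4 of 6 collections. LH and HH differed by a log2 fold change of -0.08 (SE 0.19, interval -0.46 to 0.29).

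By library numbers the LH difference turned. Txnip averaged 52.6 ± 16.1 CPM in HL (SD, n = 19) and 42.2 ± 17.4 CPM in LH (n = 19), and LH was lower in 4 of 6 collections, with a log2 fold change against HL of -0.26 (SE 0.18, interval -0.63 to 0.11, edgeR P = 0.159). Against HH it was -0.43 (SE 0.19, interval -0.81 to -0.06, n = 19 each, edgeR P = 0.0238, adjusted P = 0.408). By these numbers LH collection 5 held a single library, at 13.0 CPM, which has no replicate check. The difference of HH against HL shrank to 0.17 (SE 0.18, interval -0.19 to 0.54). Which of LH and HL held more Txnip thus turned with the names used for the libraries, and which names are right was not determined. For all 54 second runs with a listed number, the total equalled the count in the study's read summary. This ties the numbers to the counts but does not settle the sample names.

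**Figure D2:**
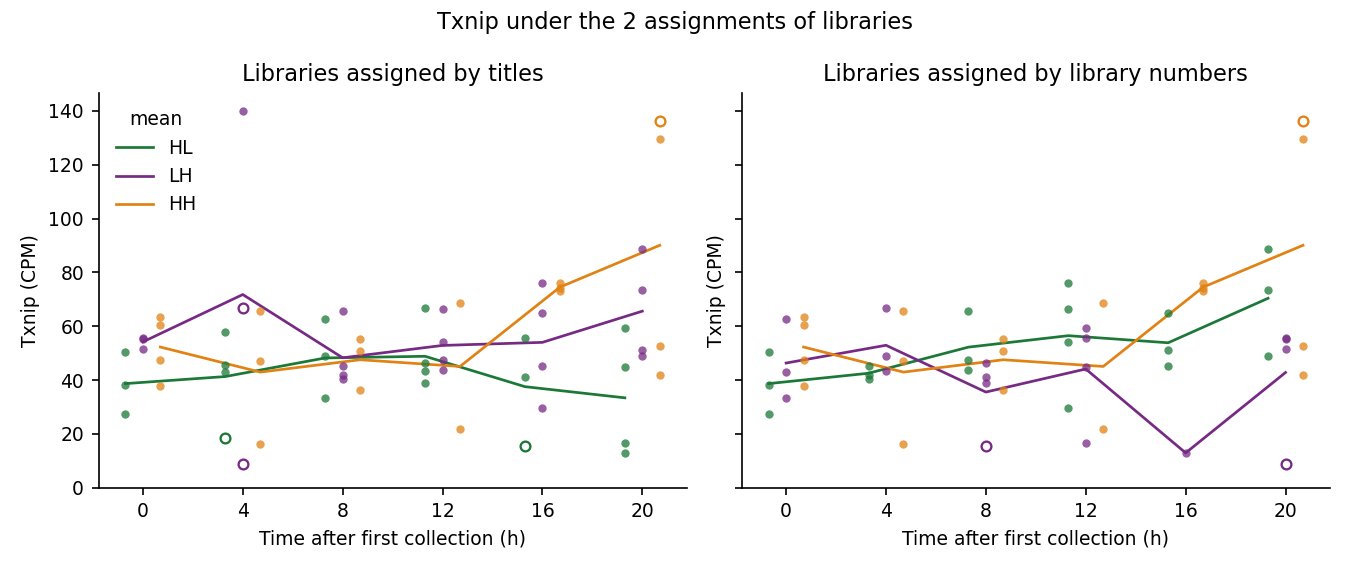
Txnip in CPM against hours after the first collection, with the libraries assigned to treatments and collections by titles (left, 62 libraries) or by library numbers (right, 57 libraries); points are libraries, open points those that stand apart, and lines join means. HH (orange) is the same in both panels, while LH (purple) averages 57.3 CPM on the left and 42.2 CPM on the right.

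Without the 5 libraries that stand apart the LH difference by titles was 0.38 (SE 0.16, edgeR P = 0.0210, n = 57 libraries) and the HH difference 0.32 (SE 0.17, edgeR P = 0.0599), and by library numbers the LH difference was -0.14 (SE 0.16). With 1 replicate number of a treatment left out by titles, the HH difference stayed positive, from 0.38 to 0.66. It passed both thresholds without HL replicate 1 (0.64) or without HH replicate 4 (0.66), though not with all replicates. The LH difference did so too without HL replicate 1 (0.57) or HH replicate 4 (0.40), and was 0.18 without LH replicate 4.

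Arrdc4, the other alpha-arrestin target, was scarce, with 0 to 31 counts per library and 670 counts in all. It averaged 2.19 ± 1.61 CPM in HL (SD, n = 21), 1.57 ± 1.23 CPM in LH (n = 22) and 1.79 ± 1.26 CPM in HH (n = 19) by titles. It was at 0 in 3 libraries, LH collection 2 replicates 2 and 4 and HH collection 4 replicate 4. A count of 0 allows up to 3 counts, which is 28.6, 1.40 and 0.493 CPM in these libraries, so that the first says nothing about Arrdc4. Intervals and limits of this kind cover counting error only.

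Its values ranged in HL from 0.184 to 5.52 CPM with a median of 1.95, in LH from 0 to 4.10 CPM with a median of 1.26, and in HH from 0 to 4.30 CPM with a median of 1.43. The lowest group mean was that of LH collection 2 at 0.0769 ± 0.133 CPM (SD, n = 3), where the libraries held 1, 0 and 0 counts and the smallest library allows no statement, and the highest that of HH collection 3 at 3.20 ± 1.59 CPM (n = 3). LH collection 2 apart, no neighbours in the order of group means differed by more than the larger of their SDs. As for Txnip, this says nothing about groups far apart in the order.

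LH against HL gave a log2 fold change of -0.53 for Arrdc4 by titles (SE 0.36, interval -1.24 to 0.19) and 0.10 by library numbers (SE 0.34, interval -0.58 to 0.77), again with opposite signs. In both assignments the sign was opposite to that of Txnip. HH against HL gave -0.31 (SE 0.37) by titles and -0.08 (SE 0.34) by library numbers. None of these passed the test.

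Mlxip, which encodes MondoA, averaged 11.5 ± 3.44 CPM in HL, 11.6 ± 2.31 CPM in LH and 12.1 ± 3.09 CPM in HH (SD, n = 21, 22 and 19). It ranged from 6.66 to 20.8 CPM over the 62 libraries. The interval of LH against HL, -0.24 to 0.19 on the log2 scale, corresponded to fold changes of 0.847 to 1.14 by titles. By library numbers the interval was -0.21 to 0.24.

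Mlx, the partner through which MondoA binds DNA, had 25.3 ± 5.03, 25.5 ± 6.44 and 24.6 ± 3.98 CPM in HL, LH and HH (SD, n = 21, 22 and 19). Its highest value, 47.7 CPM in LH collection 2 replicate 2, came from 5 counts, and the others lay between 15.9 and 36.0 CPM. The log2 fold change of LH against HL was -0.04 by titles (SE 0.09, interval -0.22 to 0.14) and 0.08 by library numbers (SE 0.09, interval -0.10 to 0.25). The 3′ end of Mlx overlaps Psmc3ip on the other strand by 385 bases, and Psmc3ip itself averaged 1.38 CPM.

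Slc2a1, the transporter that Txnip and Arrdc4 act on, averaged 23.0 ± 7.96 CPM in HL, 26.3 ± 9.90 CPM in LH and 21.8 ± 9.26 CPM in HH (SD, n = 21, 22 and 19). Its values ranged from 13.0 to 42.2 CPM with a median of 20.0 in HL, from 14.2 to 51.4 CPM with a median of 24.1 in LH, and from 12.5 to 46.2 CPM with a median of 19.1 in HH. LH was above HL in 6 of 6 collections by titles and in 1 of 6 by library numbers, with log2 fold changes of 0.13 (SE 0.16, interval -0.18 to 0.45) and -0.14 (SE 0.15, interval -0.45 to 0.17). The groups overlapped in both assignments, and no difference passed the test.

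**Figure D3:**
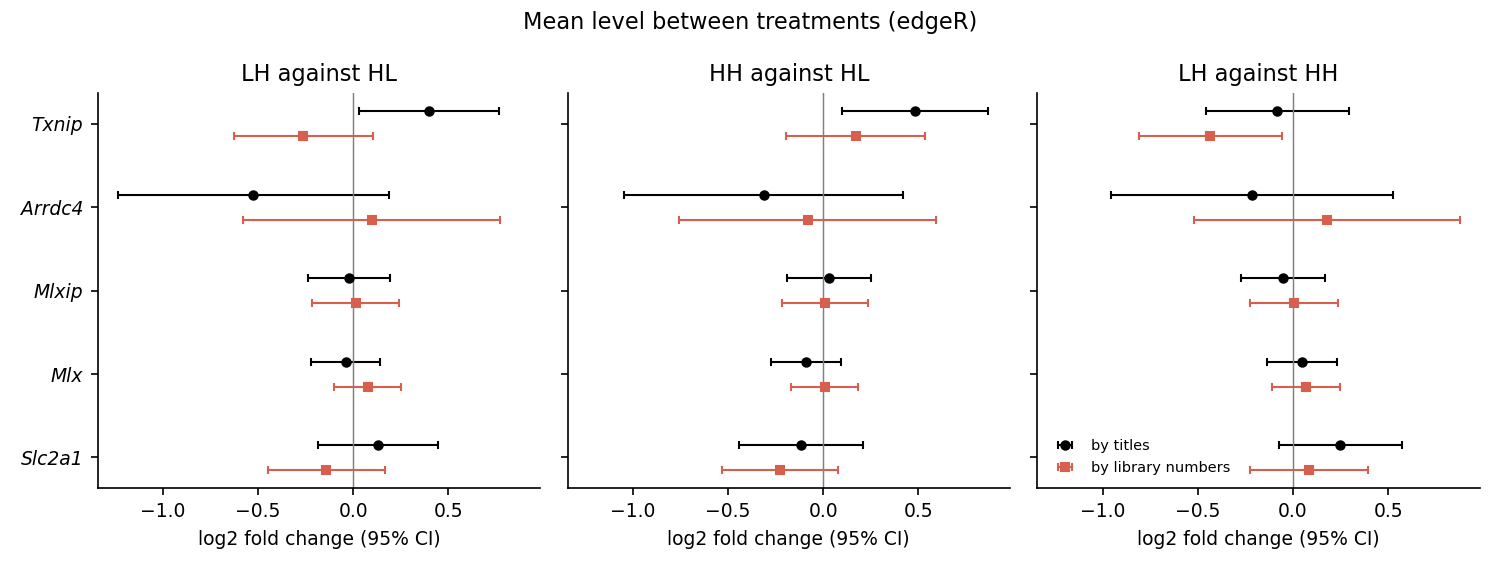
Log2 fold change of the mean level (horizontal axes) of the 5 genes for LH against HL, HH against HL and LH against HH, from edgeR with a term for collection; circles are estimates by titles, squares by library numbers, and bars are 95% confidence intervals. For LH against HL the Txnip estimates lie on opposite sides of 0, at 0.40 and -0.26, and the intervals of Arrdc4 are the widest.

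The second comparison asked whether the genes changed over the 20 h of sampling. An edgeR test between the 6 collections of a treatment called none of the members at an adjusted P of 0.05, where by titles it called 0.301% of genes within HL, 2.93% within LH and 0.293% within HH. JTK_CYCLE, a rank test for a 24 h rhythm, called none at P under 0.01, where it called 0.82%, 1.51% and 1.99% of genes. By library numbers neither test called a member in any treatment, with 0.394%, 1.05% and 0.803% of genes called between collections and 1.82%, 2.14% and 2% by JTK_CYCLE. The course over collections did not differ between treatments past an adjusted P of 0.05 for any member either, where 0.128% of genes passed by titles and 0% by library numbers.

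The smallest P of the 24 h cosine among the members was that of Txnip in HH. Its mean went from 43.0 ± 24.9 CPM in collection 2 (SD, n = 3) to 74.5 ± 1.60 CPM in collection 5 (n = 3) and 90.1 ± 49.7 CPM in collection 6 (n = 4). The edgeR test between collections gave P = 0.0538 (n = 19, adjusted 0.587) and the exact JTK_CYCLE P = 0.0790 with its best phase at 18 h, whereas a 24 h cosine fitted in edgeR gave P = 0.00731 (adjusted 0.326). At P under 0.01 the cosine called 1.12% of all genes within HL, 3.27% within LH and 2.87% within HH by titles, and 1.76%, 2.97% and 3.77% by library numbers, and of the members Txnip in HH in both assignments.

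Without the libraries that stand apart the cosine of Txnip in HH gave P = 0.0164 in edgeR (n = 57 libraries in the fit). Leaving out HH replicate 2 or HH replicate 3, each from all its collections, gave P = 0.0553 and 0.0737 in edgeR, while the exact JTK_CYCLE P was 0.00748 without HH replicate 4. In HL and LH the cosine gave P = 0.424 and 0.599 in edgeR (n = 21 and 22). The difference in rhythm between HH and HL gave P = 0.0112 in edgeR by titles (n = 19 and 21), with an adjusted P of 0.357, and P = 0.302 by library numbers. Arrdc4 gave P = 0.0216 in the same test by titles (n = 19 and 21), 0.401 after adjustment, and P = 0.925 with the groups by library numbers. With the groups by library numbers the rhythm difference between LH and HH gave P = 0.0374 for Txnip and 0.0321 for Mlxip in edgeR (n = 19 each), with adjusted P of 0.690 and 0.677, whereas by titles it gave P = 0.141 and 0.306. An unadjusted P of 0.05 was passed by 9.91% of genes in HH against HL, 7.21% in LH against HL and 9.61% in LH against HH by titles, and by 5.48%, 3.01% and 6.87% by library numbers. No member passed an adjusted P of 0.05 in a rhythm difference, where by titles 0.0677% of genes passed in LH against HL, 0.015% in HH against HL and 0.0527% in LH against HH, and by library numbers 0.00758%, 0% and 0%.

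Of the other members Slc2a1 had its highest group mean by titles in LH collection 2, 36.3 ± 11.9 CPM (SD, n = 3), and its lowest in HH collection 2, 15.3 ± 3.38 CPM (n = 3). In LH collection 2 its top value, 47.7 CPM, came from 5 counts in the smallest library, and 2 of the 3 libraries stand apart. Without the smallest library the mean was 30.6 CPM, below the 31.4 CPM of HL collection 2 and the 31.2 CPM of HH collection 6. By library numbers the highest group was HL collection 3 at 33.8 ± 15.3 CPM (SD, n = 3). Within HH it held 25.4, 15.0, 46.2 and 38.3 CPM in collection 6, and the highest of these is the library that stands apart. The test between collections gave P = 0.0505 for Slc2a1 in HH in edgeR (n = 19), with an adjusted P of 0.580, and without the libraries that stand apart P = 0.214. Mlxip lay between group means of 8.73 ± 1.27 CPM and 15.0 ± 6.04 CPM (SD, n = 3 each) by titles, both in HL, in collections 5 and 3, and by library numbers between 9.48 ± 2.34 CPM (n = 4) and 16.6 ± 4.00 CPM (n = 3), both in LH, in collections 4 and 2. Mlx lay between 20.2 ± 0.185 CPM in HH collection 5 (n = 3) and 29.8 ± 3.56 CPM in HL collection 2 (n = 4) by titles. Without the smallest library the means of LH collection 2 were 8.70 CPM for Mlxip and 19.8 CPM for Mlx, which would be the lowest of both genes by titles. Between the collections of HL Mlx gave P = 0.0570 in edgeR (n = 21, adjusted 0.575), and without the libraries that stand apart P = 0.00919 (adjusted 0.354).

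The spread of Txnip between libraries was larger than that of most genes at its level. Its biological coefficient of variation in edgeR was 40.2%, and 97.7% of the 2115 genes within 1.5-fold of its mean had a lower one. For Slc2a1 it was 32.8%, above 93.7% of genes at its level, for Mlx 18.1%, above 22.1%, and for Mlxip 21.5%, above 11.9%. Arrdc4 had 63.3%, above 68.9% of genes at its low level. By library numbers Txnip had 36.4% and Slc2a1 32.9%.

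Sequencing a library again gave less spread than this. In 55 libraries sequenced in 2 runs of at least 1000000 counts, Txnip of the first run followed that of the second with a Pearson r of 0.951, and the SD between runs was 0.237 on the log2 scale against 0.732 between libraries of a group. For Slc2a1 the r was 0.813, and for Mlxip, Mlx and Arrdc4 it was 0.607, 0.565 and 0.563. The SD between runs was 0.222 for Slc2a1, against 0.462 between libraries of a group. The 2 SDs lay closer together for Mlxip (0.236 against 0.315), Mlx (0.172 against 0.276) and Arrdc4 (0.490 against 0.639). The runs share the RNA and the library, and their likeness says nothing about separate cultures.

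The level of Txnip also moved with a property of the libraries. Over the 61 libraries with at least 1000000 counts it correlated with the share of counts on mitochondrial genes (Pearson r = 0.397, permutation P = 0.00167, adjusted over 15 relations 0.0251; Spearman rho = 0.377, permutation P = 0.00295, adjusted 0.0442), and without the 2 farthest libraries r was 0.329. The part of this share in the results on Txnip was not tested. Its r with the total counts was -0.0959 and with the share of reads on no feature -0.0993, and none of the other members passed in the 15 relations.

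Relations between members over all libraries use no names of groups. Each of the 10 pairs was tested on log2(CPM + 1) over the 62 libraries by permutation, with adjustment over the 10 pairs, and again on deviations from the mean of each treatment and collection, permuted within these groups. Arrdc4 was lower where Slc2a1 was higher, with Pearson r = -0.468 (permutation P = 0.0001, adjusted 0.0005) and Spearman rho = -0.495 (permutation P = 4e-05, adjusted 0.0004). Without the 2 libraries farthest in Arrdc4 r was -0.472.

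The inverse relation of Arrdc4 and Slc2a1 was also present within groups, with r = -0.443 by titles (adjusted permutation P = 0.00885) and -0.486 by library numbers (0.0119). Within treatments by titles it was -0.502 for HL, -0.462 for LH and -0.419 for HH, with adjusted permutation P of 0.104, 0.104 and 0.295. Without the libraries that stand apart r was -0.391 (adjusted permutation P = 0.014). The sign was thus negative in every treatment, while none of the 3 passed on its own.

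Mlx and Slc2a1 rose and fell together, with r = 0.502 (permutation P = 3e-05, adjusted 0.0003) and rho = 0.451 (permutation P = 0.00023, adjusted 0.00115), and without the 2 farthest libraries r was 0.472. Within groups r was 0.499 by titles (adjusted permutation P = 0.0076) and 0.404 by library numbers (0.0252), and within treatments by titles 0.640 for HL, 0.482 for LH and 0.402 for HH, with adjusted permutation P of 0.0203, 0.104 and 0.295. The rank correlation within treatments by titles was 0.684 for HL but only 0.231 for LH and 0.258 for HH. Its adjusted permutation P was 0.0102, 0.699 and 0.572. With HL by library numbers r was 0.509 and did not pass (adjusted permutation P = 0.261). Without the libraries that stand apart r was 0.387 (adjusted permutation P = 0.014), and within groups it then no longer passed, at 0.394 by titles (0.105) and 0.383 by library numbers (0.0710).

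**Figure D4:**
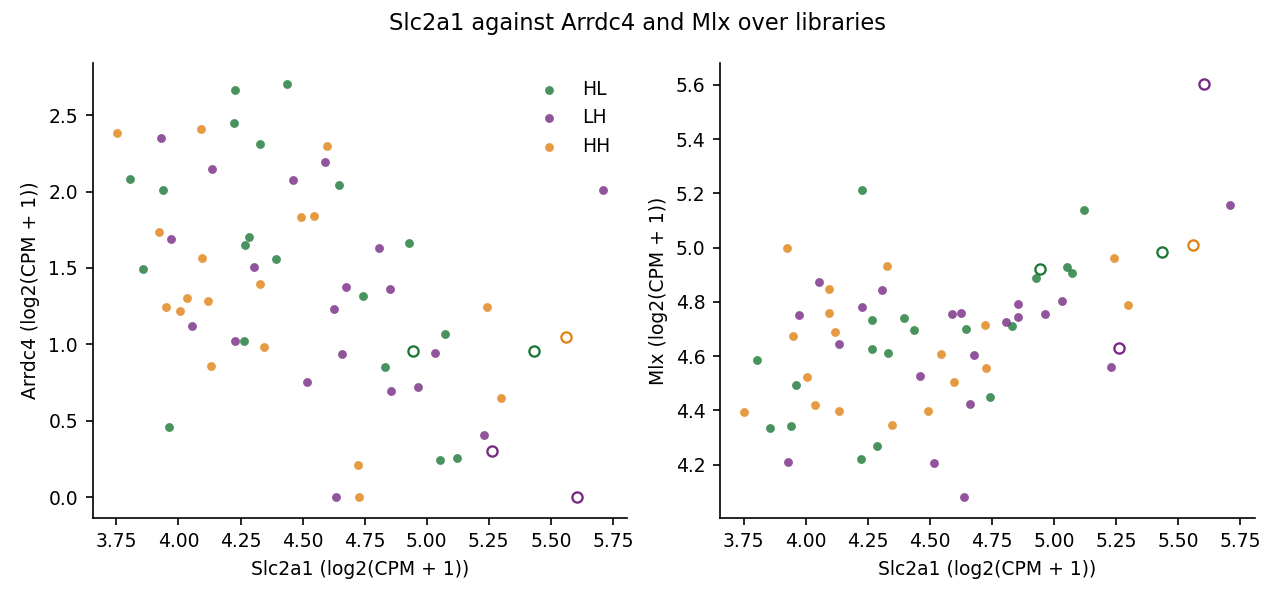
Arrdc4 (left) and Mlx (right) against Slc2a1, all as log2(CPM + 1), in the 62 libraries; colours are treatments by titles and open points the 5 libraries that stand apart. The clouds slope down for Arrdc4 (r = -0.468) and up for Mlx (r = 0.502) in all 3 colours.

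Txnip and Arrdc4, the shared targets of MondoA, were unrelated over all libraries, with r = 0.0575 (permutation P = 0.656) and rho = 0.0573. Within treatment-by-collection groups r was 0.246 by titles (adjusted permutation P = 0.264) and 0.497 by library numbers (adjusted permutation P = 0.0119, n = 56, with rho = 0.474). Without the libraries that stand apart these were 0.294 (adjusted permutation P = 0.279) and 0.420 (adjusted permutation P = 0.106). The relation between the alpha-arrestins therefore passed only with the groups by library numbers and all their libraries.

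**Figure D5:**
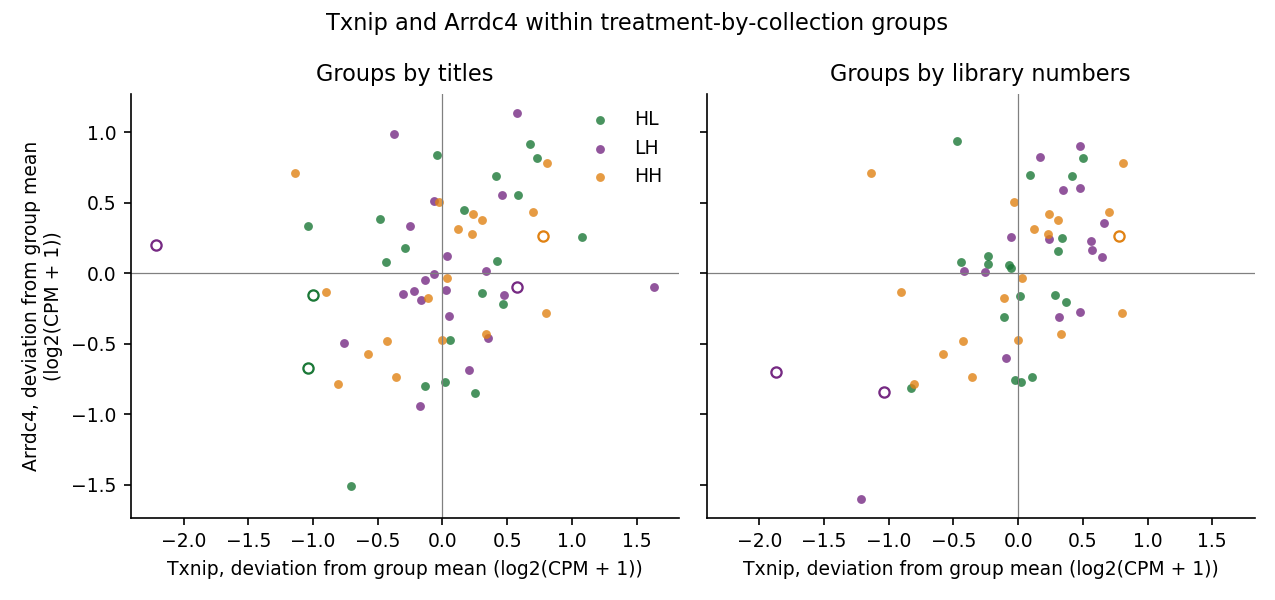
Deviation of Arrdc4 from its group mean against that of Txnip, in log2(CPM + 1), with groups of treatment and collection by titles (left, 62 libraries) or by library numbers (right, 56 libraries); open points are libraries that stand apart. The Pearson r is 0.246 on the left and 0.497 on the right, where 2 LH libraries at the lower left lie far from the rest.

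Txnip and Mlxip had r = 0.278 over all libraries (permutation P = 0.0286, adjusted 0.0952) and rho = 0.380 (permutation P = 0.00244, adjusted 0.00813), so that the rank correlation alone passed. Within groups r was 0.172 by titles (adjusted permutation P = 0.327) and 0.354 by library numbers (0.0278). Without the libraries that stand apart the pair had r = 0.206 over all libraries (adjusted permutation P = 0.350) and rho = 0.366 (adjusted 0.0184), and within groups by library numbers r = 0.309, which no longer passed (adjusted permutation P = 0.121). Txnip and Slc2a1 had r = -0.132 over all libraries (permutation P = 0.305), and within groups -0.330 by titles (adjusted permutation P = 0.127) and -0.444 by library numbers (0.0231), or -0.340 (0.154) and -0.465 (0.0286) without the libraries that stand apart. The remaining 5 pairs passed in neither measure over all libraries.

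The genes most like Txnip, over the 61 libraries of at least 1000000 counts and among 7781 genes with a mean of at least 10 CPM, were Ctdsp2 (r = 0.904), a phosphatase of the RNA polymerase II tail, Tpra1 (0.882), Fzd1, a Wnt receptor (0.874), 2310022B05Rik (0.874) and Hadh, an enzyme of fatty acid oxidation (0.867). For Ctdsp2 r was 0.933 within HL, 0.864 within LH and 0.930 within HH. The median gene had an r of 0.190 with Txnip. These values are a description over libraries that share their processing, and none of the 5 belongs to the MondoA pathway lists.

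Arrdc4 had weaker likenesses, led by Actg1 (r = 0.569), Cenpf (0.569), Khdrbs1 (0.563), Tpx2 (0.540) and Plagl1 (0.538). Cenpf and Tpx2 are genes of mitosis, and Actg1 encodes cytoplasmic actin. The likeness to Cenpf was 0.257 within HL, 0.823 within LH and 0.715 within HH.

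The rest of the pathway was taken as 51 genes in 7 lists, of which 41 were tested. None of the 41 was called in mean level by edgeR in any pair of treatments in either assignment, which at a background of 0.568% to 1.63% of genes is near the share of all genes. At an unadjusted P of 0.05 in edgeR 0, 4 and 3 of the 41 passed in LH against HL, HH against HL and LH against HH by titles, and 2, 1 and 8 by library numbers. The shares of all genes at that P were 5.69%, 7.42% and 5.23% by titles and 7.63%, 3.62% and 10.2% by library numbers, so that the 8 of LH against HH lay above the share of all genes, with none called. The median of their log2 fold changes from HL to LH was -0.03 by titles but 0.03 by library numbers, so that its sign turned with the assignment, and in HH against HL it was -0.01 and -0.00091, beside 0.00 for all genes tested. Between collections 1 of the 41 passed by titles, Hk1 in LH (adjusted P = 0.0448 in edgeR), where 2.93% of all genes passed, and none by library numbers. Without the libraries that stand apart its adjusted P was 0.239. Hk1 encodes hexokinase, which makes the glucose 6-phosphate that MondoA responds to, and ranged from 42.3 to 450 CPM. JTK_CYCLE called 1 in LH and 1 in HH by titles, the ubiquitin ligases Itch and Nedd4, and by library numbers 2 in HL, Mxd3 and Acaca, and Nedd4 in HH. The shares of all genes so called were 1.51% and 1.99% by titles and 1.82% and 2% by library numbers, so that 1 of 41 genes lies near the background. The 2 of 41 in HL by library numbers lay above the 1.82% of all genes, on a count of 2 genes only. Itch, Mxd3 and Acaca were named after their values were seen.

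In the Max and Mlx network Mlxipl, which encodes ChREBP, the paralogue of MondoA, was nearly absent at 0.0454 CPM with 51 of 62 libraries at 0, so that Mlxip was the Mondo gene present. The most abundant of this list was Mxd4, a repressor that also pairs with Max, at 375 CPM. Its log2 fold change of LH against HL was -0.07. Of the other alpha-arrestins Arrdc3 averaged 11.5 CPM and Arrdc5 was at 0 in all 62 libraries, and of the thioredoxin system Txnrd1 averaged 198 CPM. Among the other facilitative glucose transporters Slc2a8 averaged 11.7 CPM, and Slc2a4, the insulin-regulated transporter, had counts in 1 of 62 libraries.

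Of the other targets reported for MondoA or ChREBP, 9 of 11 were tested, and Fasn, the fatty acid synthase, was the most abundant at 304 CPM. Its log2 fold change was -0.19 in LH against HL by titles and 0.12 by library numbers. Nedd4, a ubiquitin ligase that binds alpha-arrestins, averaged 1693 CPM with log2 fold changes of -0.06 and 0.08. Pklr and Rgs16 were not tested, at 0 in 57 and 58 of 62 libraries.

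On the build GRCm38 (annotation GENCODE vM21) Txnip lies at chr3:96557957-96561883 on the plus strand, and the antisense gene Gm15441 covers all of it. Gm15441 had 50 counts over all libraries, against 18516 of Txnip, and whether the authors' counting used the strand is not given in the sources used here. Arrdc4 lies at chr7:68736995-68749241 on the minus strand and overlaps no other gene. Mlxip lies at chr5:123394798-123457932, Mlx at chr11:101087277-101092207 and Slc2a1 at chr4:119108711-119137983, all on the plus strand. Gm12868, antisense to the 3′ end of Slc2a1, had 0 counts.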

How the data were processed

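The authors prepared 3′DGE libraries from total RNA and sequenced them single end on a NovaSeq, most in 2 runs. Per the labels, the deposited files are whole-number read counts per Ensembl gene and run; the submitters' processing notes name bcl2fastq, STAR 2.6.0a, HTSeq 0.9.1 and the build mm10, whereas no annotation release or strand setting is given in the sources used. The 121 count sets were summed over runs to 62 libraries. Between 18.4% and 29.1% of the reads of a run fell on no feature and were left out of totals. CPM were counts divided by the library total; in 3′DGE they are not divided by gene length. The precision follows the depth given with the values.

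Genes that reached 1 CPM in 3 or more libraries were fitted in edgeR 4.0.16 (R 4.3.3) with TMM scaling and the quasi-likelihood test. Mean levels had terms for treatment and collection, changes over collections 1 mean per group, and rhythms a 24 h cosine and sine within each treatment. P-values were adjusted by Benjamini-Hochberg over all genes tested. JTK_CYCLE was computed in Python 3.11.15 with exact null distributions over 12 phases. Correlations used 100000 permutations, two-sided. Both scripts were tested on simulated data. Time was collection order times 4 h, since the hours in the labels repeat.

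The members, lists and rules were chosen with earlier results of these data known. Named genes were the 5 members, list genes past an adjusted P of 0.05 in edgeR or otherwise the most abundant of a list, and the 5 genes most like Txnip and Arrdc4. Outside this rule, chosen after their values were seen, are Mlxipl, Arrdc5, Slc2a4, Pklr and Rgs16, which were nearly absent, Itch, Mxd3 and Acaca, and genes that overlap a member. Alternatives were library numbers, each run alone, other filters and scalings (DESeq2 1.42.0 size factors among them), the DESeq2 test, no term for collection, a block for replicate number, and each replicate left out. The 24 h cosine as a result of its own and the fits without the libraries standing apart, or without the smallest library in correlations, were chosen after seeing the data.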

Additional observations from a re-analysis of the deposited data

Results flagged for a closer look

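In the groups of 4 libraries by titles, 45 gene and group combinations of the members were examined for a single value far from the other 3, and 2 were found. Arrdc4 in LH collection 5 replicate 1 was at 4.10 CPM, where the other libraries of that group held 0.647 to 1.03 CPM. Mlx in HL collection 4 replicate 2 was at 29.0 CPM, where the others held 24.9 to 25.6 CPM. Chance flags about 1 in 20 such groups.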

How the results depend on the processing

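Of 1995 alternative values of the members' results, 1931 kept direction and side of the threshold, 37 reversed, 16 newly passed and 11 no longer passed; the causes were not tested. By library numbers the log2 fold change of LH against HL reversed for Txnip (-0.26), Arrdc4 (0.0965), Mlxip (0.0141), Mlx (0.0767) and Slc2a1 (-0.14), that of LH against HH for Arrdc4 (0.18) and Mlxip (0.0039), and that of HH against HL for Mlx (0.0090). Without the libraries standing apart as well, the values by library numbers were -0.144, 0.202, 0.0403, 0.0496 and -0.22 for LH against HL in the same order of genes, 0.294 and 0.0408 for LH against HH of Arrdc4 and Mlxip, and -0.00051 for HH against HL of Mlxip. Without them by titles, LH against HH of Txnip was 0.0628. The first run alone gave 0.143 for Arrdc4 in LH against HH and 0.0015 for Mlx in LH against HL, and the second run alone 0.0872 for Arrdc4 and -0.00428 for Mlxip in HH against HL.

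Replicate numbers were shared between groups, and the median r of the deviations of libraries with the same number was 0.0015 by titles, against -0.0011 for other numbers, and 0.160 by library numbers, against -0.0369. By library numbers 64.7% of the pairs with the same number were over 0.1, so that they deviated together in part. The replicate block was fitted by titles only, where no such shared deviation was seen. Tests and within-group correlations by library numbers thus leave this shared part out of account. With the block by titles Txnip was 0.40 in LH against HL and 0.48 in HH against HL, and of the members' results only Mlxip in HH against HL reversed, at -0.00451.

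Without the filter on low counts Txnip passed in LH against HL (0.40), in HH against HL (0.48), over the collections of HH (adjusted P = 6.81e-07) and in the interaction (adjusted P = 4.91e-05), and Slc2a1 over the collections of HH (0.0166) and in the interaction (0.0161), all in edgeR; the numbers of genes called rose with it from 154 to 387, 160 to 399 and 121 to 335 for the pairs of treatments, from 40 to 638, 390 to 1254 and 39 to 498 over collections of HL, LH and HH, and from 17 to 1075 in the interaction. The cosine of Txnip in HH, P = 0.00731 in edgeR (n = 19) where JTK_CYCLE did not pass, was 0.0116 in the first run alone, 0.0271 with total counts only, 0.0164 without the libraries standing apart, 0.0130 by library numbers without them, and 0.326 adjusted.

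With 1 replicate number of a treatment left out, Txnip ranged from 0.18 to 0.57 in LH against HL, 0.38 to 0.66 in HH against HL and -0.28 to 0.0311 in LH against HH, its cosine P in HH from 0.0037 to 0.0737 in edgeR and its JTK_CYCLE P in HH from 0.00748 to 0.471. The other ranges were -0.64 to -0.42, -0.49 to -0.0321 and -0.50 to -0.0665 for Arrdc4, -0.14 to 0.0400, -0.0881 to 0.125 and -0.153 to 0.0455 for Mlxip, -0.106 to 0.0287, -0.138 to -0.0209 and -0.0192 to 0.0779 for Mlx, and 0.0212 to 0.248, -0.233 to 0.0531 and 0.0879 to 0.378 for Slc2a1, in LH against HL, HH against HL and LH against HH.

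For correlations, Txnip and Arrdc4 gave -0.0348 and Arrdc4 and Mlx 0.0112 without the libraries standing apart, and Mlxip and Mlx -0.0288 within groups by titles without them. Within groups by library numbers Txnip passed with Arrdc4 (0.497), Mlxip (0.354) and Slc2a1 (-0.444); without the libraries standing apart it passed with Slc2a1 (-0.465) but with neither Arrdc4 (0.420) nor Mlxip (0.309). Mlx and Slc2a1 did not pass within groups without these libraries (0.394 by titles, 0.383 by library numbers). The counts of all genes called ranged, over the alternatives, from 88 to 387 (LH against HL), 75 to 399 (HH against HL) and 71 to 335 (LH against HH) in mean level, from 6 to 638, 46 to 1254 and 4 to 498 over collections of HL, LH and HH, from 0 to 1075 in the interaction, and from 0 to 240 in HL and 0 to 390 in LH by JTK_CYCLE, which adjusted over genes called 3 in HH. For the 24 h cosine they ranged from 103 to 887 in HL and from 142, without HH replicate 3, to 983 in HH, and reached 1168 in LH, and for rhythm differences from 0 to 83, 51 and 78 in LH against HL, HH against HL and LH against HH. Depth limits Arrdc4 most, at no more than 31 counts in a library.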
